A study of Homo sapiens with 16 samples.

Results

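Glycolytic genes and genes of the hypoxia response were examined in HCC4006, a human non-small cell lung cancer line with an activating EGFR mutation, after 24 hours of drug treatment. The list held 40 genes: 17 glycolytic enzymes, 3 glucose and lactate transporters, 3 regulators of glycolytic flux, 15 non-metabolic targets of hypoxia-inducible factor (HIF) and the 2 HIF alpha subunits HIF1A and EPAS1. A gene was taken by its symbol in the deposited expression table, where 39 of the 40 had a row, and was tested where its mean over all 16 libraries was at least 1 FPKM (fragments per kilobase of transcript, scaled to the mapped fragments of the library). This left 38 of the 11647 loci tested, out of 24293 loci in the table. ANKRD37 lay just outside at a mean of 0.950 FPKM and PFKFB4 just inside at 1.4 FPKM. TPI1, the triosephosphate isomerase gene, had no row of its symbol and is described apart, from a row without a symbol whose transcripts match it.

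The 4 groups were the vehicle DMSO, gefitinib at 100 nM, AZ1366 at 100 nM, and the combination of both drugs at 100 nM each, with 4 libraries in each group. Gefitinib inhibits the EGFR tyrosine kinase. AZ1366 inhibits the tankyrases, poly-ADP-ribosylating enzymes that promote the destruction of AXIN and so sustain Wnt signalling. All 4 groups are the same line in culture, no low-oxygen treatment is named in the labels, and the values describe 1 tumour line. The labels do not tell if separate cultures gave the 4 libraries per treatment, and p-values then measure the spread between these libraries, which may be technical.

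Glycolysis splits glucose into pyruvate in the cytosol, and lactate dehydrogenase then turns pyruvate into lactate, which monocarboxylate transporters export. Tumour cells often run this route fast even with oxygen, and growth factor signalling through EGFR is known to sustain it. HIF is a dimer of an oxygen-labile alpha subunit and a stable partner. In low oxygen the alpha subunit escapes hydroxylation and degradation, and the dimer binds hypoxia response elements, with the core ACGTG or GCGTG, near genes of glycolysis, pH control, angiogenesis and mitophagy. Because HIF alpha is controlled largely as a protein, its transcript level is not a measure of HIF activity.

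Both cores were searched, on both strands, in windows from 250 bases before to 50 bases after the gene start (RefSeq, GRCh38.p14), and 35 of the 40 genes had a window. NDRG1, SLC16A1, STC1, VEGFA and BNIP3L had none in the table. One or the other motif was found in 26 of 35 windows (74.3%), against 63.9% of 8109 windows of loci at 1 FPKM or more and 48.4% of all 27305 windows. It was found in 12 of 17 windows of glycolytic enzymes and in 9 of 11 windows of non-metabolic HIF targets. Taken singly, ACGTG was in 37.1% of the 35 windows and in 27.2% of those of loci at 1 FPKM or more, and GCGTG in 51.4% and 51.3%. The palindrome CACGTG holds ACGTG on both strands, which counts as 2 matches, and was in 5 of 35 windows (14.3%), against 10.3% of the windows of loci at 1 FPKM or more and 7.43% of all windows. A match is a description of the letters and was not tested as a binding site.

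The 250 bases before the start are shown, 5′ to 3′ on the gene's strand with matches in capitals, for 3 genes that were lower with gefitinib and higher with AZ1366 (CA9, BNIP3 and LDHA), for PGK1, an enzyme gene with small changes of the same signs, and for HK2, which was lower with each drug. The CA9 run (chr9:35673678-35673927, plus strand) has a single ACGTG, on the reverse strand, beginning 18 bases before the start. The BNIP3 run (chr10:131981924-131982173, minus strand) has 2 ACGTG matches, both in 1 palindrome, and 4 GCGTG matches. The LDHA run (chr11:18394313-18394562, plus strand) has 5 ACGTG matches, 4 of them in its 2 palindromes. The PGK1 run (chrX:78103998-78104247, plus strand) and the HK2 run (chr2:74833877-74834126, plus strand) each have 2 ACGTG matches and 1 GCGTG match. The runs shown are not typical of the list: each has ACGTG, which was in 37.1% of the 35 windows. The windows of PFKP, PDK1 and HK1, which also fell with gefitinib, had no match of either core.
CA9: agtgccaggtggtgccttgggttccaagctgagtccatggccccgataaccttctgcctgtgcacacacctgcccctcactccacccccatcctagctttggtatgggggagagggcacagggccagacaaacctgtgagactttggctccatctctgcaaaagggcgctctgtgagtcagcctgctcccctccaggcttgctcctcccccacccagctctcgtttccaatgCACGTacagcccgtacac
BNIP3: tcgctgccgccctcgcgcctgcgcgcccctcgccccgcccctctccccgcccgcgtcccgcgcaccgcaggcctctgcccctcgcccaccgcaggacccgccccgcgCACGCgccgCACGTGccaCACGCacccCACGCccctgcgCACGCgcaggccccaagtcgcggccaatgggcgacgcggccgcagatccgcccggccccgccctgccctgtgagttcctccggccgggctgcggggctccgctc
LDHA: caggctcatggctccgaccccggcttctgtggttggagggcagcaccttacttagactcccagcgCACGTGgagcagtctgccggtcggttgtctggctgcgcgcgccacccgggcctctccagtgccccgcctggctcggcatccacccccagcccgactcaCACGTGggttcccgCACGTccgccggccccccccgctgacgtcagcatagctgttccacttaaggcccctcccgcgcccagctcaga
PGK1: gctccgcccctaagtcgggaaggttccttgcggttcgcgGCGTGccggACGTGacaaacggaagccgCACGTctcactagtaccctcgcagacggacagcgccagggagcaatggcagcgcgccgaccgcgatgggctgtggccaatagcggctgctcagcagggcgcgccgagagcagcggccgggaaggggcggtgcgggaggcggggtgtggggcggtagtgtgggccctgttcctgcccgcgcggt
HK2: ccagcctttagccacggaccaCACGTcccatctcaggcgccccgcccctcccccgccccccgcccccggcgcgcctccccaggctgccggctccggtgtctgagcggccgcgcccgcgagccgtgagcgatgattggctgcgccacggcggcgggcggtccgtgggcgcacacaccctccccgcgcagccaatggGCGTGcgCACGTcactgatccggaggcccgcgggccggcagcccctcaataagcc

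Of 10 lung epithelial markers, 8 were at a mean of 1 FPKM or more, while the surfactant gene SFTPB and the aspartic protease gene NAPSA were under 1 FPKM. The summed level of the 10 was 5253 to 5989 FPKM in vehicle, 4504 to 4870 with gefitinib, 3764 to 5018 with AZ1366 alone and 3752 to 4136 with the combination. Members of this list went both ways: with gefitinib KRT8, KRT18 and KRT19 fell by 0.46, 0.46 and 0.25, while MUC1 and EPCAM rose by 1.12 and 0.13. Of 9 markers of blood, stromal, endothelial and muscle cells with a row, none of them at 0 on average, COL1A1 alone reached 1 FPKM, and their summed level was 2.45 to 2.93 FPKM in vehicle, 2.73 to 2.85 with AZ1366, 3.16 to 3.46 with gefitinib and 3.16 to 3.56 with both. The part of either marker list in the results was not tested. The depth of the libraries is unknown because no counts were used. The 100 most abundant loci took 27.6% ± 0.622 (SD, n = 4) of summed FPKM in vehicle, 29.6% ± 1.10 after gefitinib, 30.6% ± 1.42 after AZ1366 and 33.4% ± 1.02 after both. FPKM are shares of a library, so fewer expressing cells and less RNA per cell cannot be told apart, and a shift of all genes is not visible. The AZ1366 library of replicate 1 stood apart: its score on the first principal component was -19.6, against -6.50 to -3.10 in the other AZ1366 libraries and -39.3 to -34.0 in vehicle. Some of the results that rest on it are given with and without it, and the others only with it.

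In vehicle, transcripts of the lower glycolytic pathway were the most abundant of the 38 genes. GAPDH, which oxidises glyceraldehyde 3-phosphate, stood highest at 3140 ± 126 FPKM (SD, n = 4). It was followed by the pyruvate kinase gene PKM2 at 1683 ± 75.3, the enolase gene ENO1 at 1519 ± 68.3, the aldolase gene ALDOA at 1320 ± 72.0 and LDHA at 1013 ± 55.4 FPKM, and neighbours in this order did not overlap over their 4 libraries. The hexokinases, which trap glucose in the cell, stood far lower, HK1 at 43.4 ± 2.44 and HK2 at 21.1 ± 0.900 FPKM. HIF1A was at 315 ± 7.30 FPKM and EPAS1, which encodes HIF-2 alpha, at 11.3 ± 0.941 FPKM. The non-metabolic HIF targets ran from 68.9 ± 7.95 FPKM for BNIP3, a mitophagy receptor, to 1.502 ± 0.103 FPKM for CA12, a membrane carbonic anhydrase. GAPDH, PGK1, ALDOA, ENO1, PGAM1, PKM2 and LDHA have processed pseudogenes, so their values are uncertain where reads were shared between copies.

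**Figure D1:**
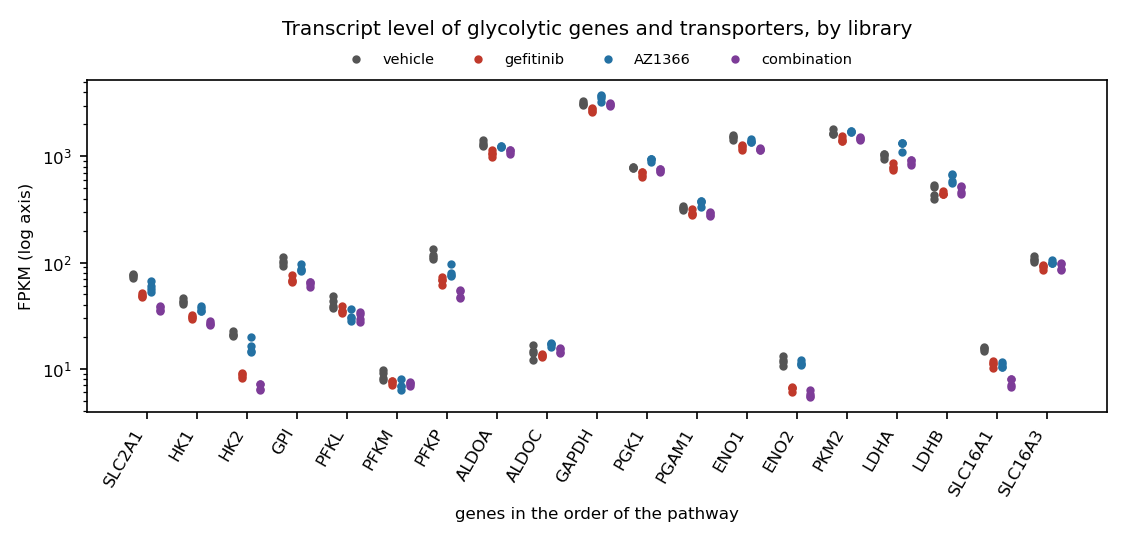
FPKM of each library (log axis) for 16 glycolytic enzymes and 3 transporters, in the order of the pathway, with 1 point per library and 4 libraries per treatment. Levels span from 5.47 FPKM for ENO2 with both drugs to 3746 FPKM for GAPDH with AZ1366, and the gefitinib and combination points lie under the vehicle points for HK2, PFKP and ENO2.

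The first comparison asked how EGFR inhibition changed these genes. With gefitinib, 30 of 38 genes fell and 2 rose, against 36.9% of all tested loci called lower, 27.7% called higher and 64.6% called in either direction (limma, Benjamini-Hochberg adjusted p under 0.05). The median change on the log2(FPKM + 1) scale was -0.32 over the 38 genes and -0.06 over all tested loci. The added 1 FPKM shrinks the changes of low genes on this scale. The libraries lay wholly below vehicle for 27 of the 38 genes and wholly above for 3, against 35.7% and 25.2% of all tested loci. The 38 genes took 2.60% ± 0.0765 of summed FPKM in vehicle and 2.12% ± 0.0251 with gefitinib (SD, n = 4).

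At the entry of the pathway all 3 transporters fell with gefitinib. SLC2A1, the glucose transporter GLUT1, was 78.1, 73.8, 70.7 and 76.7 FPKM in the vehicle libraries and 47.4, 49.5, 48.5 and 51.8 with gefitinib, groups that lay apart. Its log2 change was -0.59 ± 0.0654 (SE, n = 4 per group, limma adjusted p = 5.12e-07). The lactate exporters SLC16A1 and SLC16A3, also called MCT1 and MCT4, fell by 0.44 and 0.23 on the log2 scale. The fall of SLC16A3 did not pass with a correction for transcript length and GC content (-0.05).

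Of 16 glycolytic enzymes 14 fell and 0 rose with gefitinib, beside 36.9% and 27.7% of all tested loci. The median of the enzymes' log2 changes was -0.27. The largest fall was that of HK2 (chr2:75059781-75120481, hg19 as deposited), the inducible hexokinase. HK2 was 22.4, 20.5, 20.6 and 21.1 FPKM in vehicle, 9.17, 8.94, 8.11 and 8.62 with gefitinib, 19.9, 14.7, 14.4 and 16.5 with AZ1366, and 7.20, 7.10, 6.41 and 6.32 with both. Every gefitinib library lay below every vehicle library, and the log2 change was -1.19 ± 0.0795 (limma adjusted p = 8.36e-10). The constitutive HK1 fell less, by 0.49 ± 0.0526, and the ratio of HK1 to HK2 in FPKM was 2.05 ± 0.0386 (SD, n = 4) in vehicle and 3.53 ± 0.131 with gefitinib, in libraries that did not overlap.

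PFKP, the platelet form of phosphofructokinase and the most abundant of the 3 isoforms here, went from 134, 109, 111 and 118 FPKM in vehicle to 68.8, 73.1, 61.9 and 68.5 with gefitinib. This was a log2 change of -0.78 ± 0.0881 (limma adjusted p = 6.56e-07), while the isoforms PFKL and PFKM changed by -0.22 and -0.20. The call on PFKL was weak (adjusted p = 0.0404) and was lost in 7 alternatives. ENO2, the neuronal form of enolase, fell by 0.78 ± 0.0632 and ENO1 by 0.32 ± 0.0532. GPI, which isomerises glucose 6-phosphate, fell by 0.55 ± 0.0665.

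The abundant enzymes of the lower pathway changed by less than HK2, PFKP and ENO2. LDHA, the dehydrogenase subunit that favours lactate, was 934, 1047, 1055 and 1015 FPKM in vehicle and 738, 770, 796 and 862 with gefitinib, a log2 change of -0.36 ± 0.0715 (limma adjusted p = 0.000332). GAPDH, PGK1, PGAM1 and PKM2 fell by 0.21, 0.21, 0.15 and 0.22, and none of these 4 calls passed after median-ratio scaling (-0.14, -0.15, -0.09 and -0.15). ALDOC and LDHB did not pass, at -0.10 and -0.06. The row matched to TPI1 was at -0.09 ± 0.0634 (limma adjusted p = 0.229).

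Of the 3 flux regulators, PDK1 and PFKFB4 fell with gefitinib. PDK1, the kinase that shuts pyruvate dehydrogenase and keeps pyruvate out of mitochondria, was 7.598, 7.57, 7.42 and 7.51 FPKM in vehicle and 3.99, 4.94, 4.64 and 4.66 with gefitinib (log2 change -0.62 ± 0.0621, limma adjusted p = 1.55e-07). PFKFB3 and PFKFB4 make and remove fructose 2,6-bisphosphate, the activator of phosphofructokinase. PFKFB4 fell by 0.33 ± 0.0661. PFKFB3 was at 0.22 ± 0.0971 and did not pass (limma adjusted p = 0.0577), although its gefitinib libraries (19.7 to 22.7 FPKM) lay above those of vehicle (16.5 to 18.6), and it passed in 7 alternatives, among them a fit of the 8 libraries compared (adjusted p = 0.00679).

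Of 14 non-metabolic HIF targets, 9 fell and 2 rose with gefitinib, beside 36.9% and 27.7% of all tested loci. The median log2 change of these targets was -0.31. The largest falls on the log2(FPKM + 1) scale were those of STC1, NDRG1, VEGFA and CA9. STC1, a secreted glycoprotein hormone, was 3.6, 3.97, 3.79 and 3.69 FPKM in vehicle and 1.01, 1.18, 1.02 and 1.07 with gefitinib (log2 change -1.20 ± 0.0637, limma adjusted p = 4.27e-11). NDRG1 (chr8:134249413-134309547), a stress-responsive gene and a common hypoxia marker, was 19.96, 18.6, 16.5 and 20.1 FPKM in vehicle and 8.09, 8.13, 7.43 and 8.03 with gefitinib (-1.14 ± 0.0666, adjusted p = 1.39e-10). In both genes every gefitinib library lay below every vehicle library.

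VEGFA, the angiogenic growth factor, was 18.8, 17.4, 16.3 and 17.2 FPKM in vehicle and 7.62, 7.85, 7.10 and 7.19 with gefitinib (-1.12 ± 0.113, limma adjusted p = 1.53e-07). CA9 (chr9:35673914-35681154), the carbonic anhydrase that controls pH outside hypoxic cells, was 11.0, 11.7, 8.71 and 11.0 FPKM in vehicle and 4.53, 4.41, 4.69 and 4.63 with gefitinib (-1.05 ± 0.0779, adjusted p = 3.26e-09). STC2, the paralog of STC1, fell by 0.77 ± 0.103, P4HA1, a collagen prolyl hydroxylase subunit, by 0.56 ± 0.0545, and BNIP3 by 0.46 ± 0.0667. P4HA2 and EGLN1, the oxygen-sensing HIF prolyl hydroxylase PHD2, changed by -0.17 and -0.16, and the call on EGLN1 (adjusted p = 0.0362) was lost in 9 alternatives.

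The 2 targets that rose were ADM and CA12. ADM, which encodes the vasodilator peptide adrenomedullin, was 6.36, 5.94, 6.75 and 6.16 FPKM in vehicle and 7.52, 8.79, 7.62 and 7.82 with gefitinib (0.29 ± 0.0732, limma adjusted p = 0.00222). CA12 was 1.38 to 1.61 FPKM in vehicle and 1.65 to 2.15 with gefitinib (0.23 ± 0.0741, adjusted p = 0.012). BNIP3L, EGLN3 and KDM3A did not pass, at -0.01, -0.02 and -0.09.

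Both HIF alpha transcripts fell. HIF1A (chr14:62162118-62215807) was 307, 313, 324 and 315 FPKM in vehicle, 233, 252, 221 and 204 with gefitinib, 306, 215, 232 and 241 with AZ1366, and 164, 177, 153 and 162 with both. The change with gefitinib was -0.47 ± 0.0868 (limma adjusted p = 0.000153). EPAS1 went from 12.7, 10.6, 10.7 and 11.3 FPKM to 6.77, 6.80, 5.68 and 6.09 (-0.75 ± 0.0934, adjusted p = 2.15e-06).

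**Figure D2:**
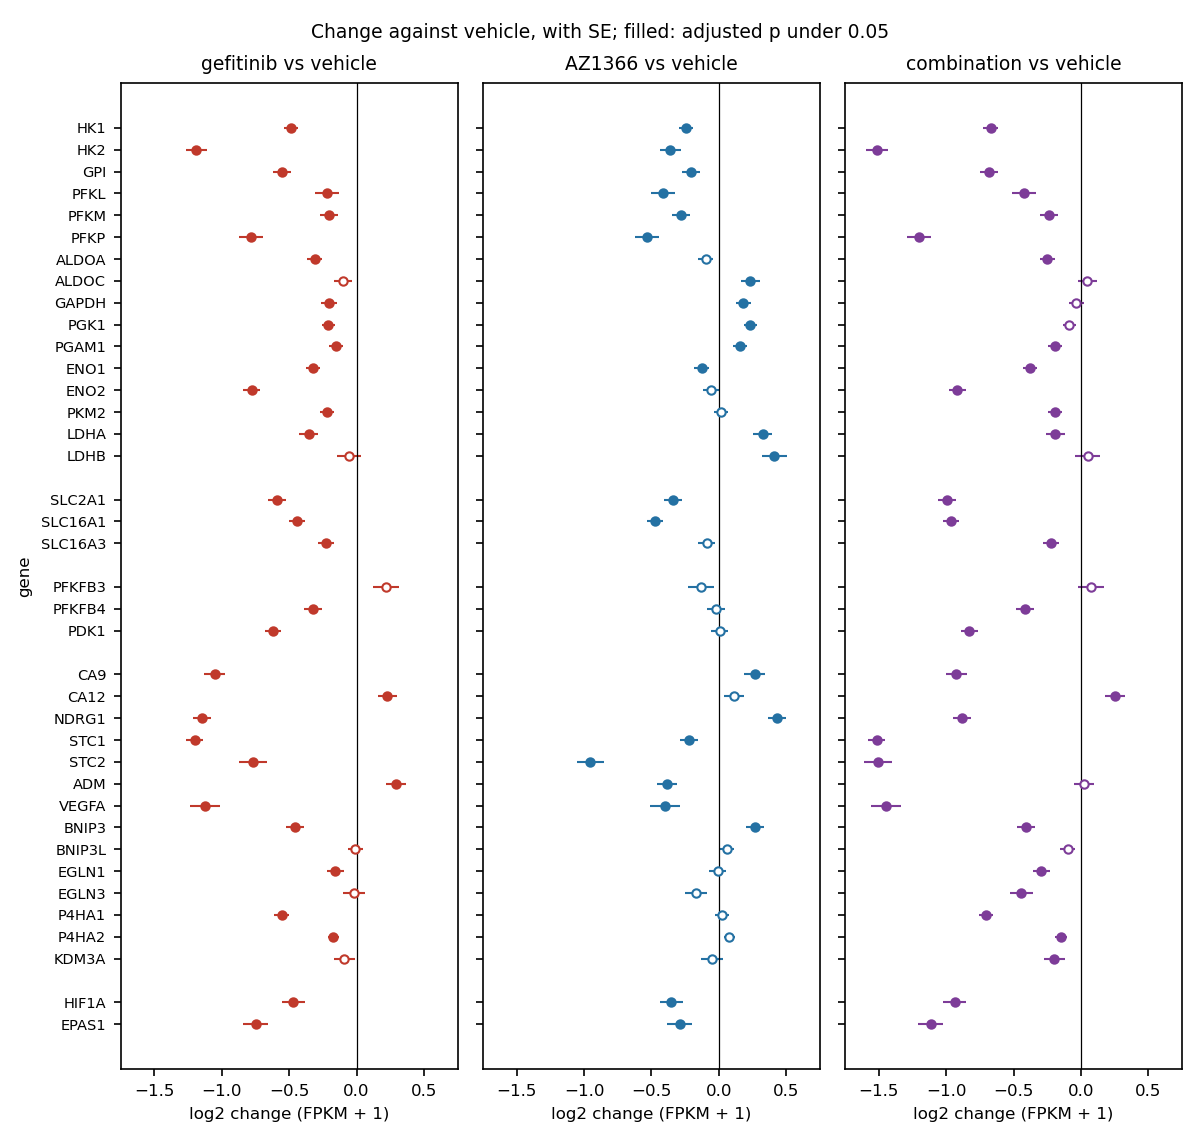
Log2 change of FPKM + 1 against vehicle with its standard error for the 38 genes, in 3 panels (gefitinib, AZ1366, combination), grouped from top to bottom as enzymes, transporters, flux regulators, non-metabolic HIF targets and HIF alpha subunits. Filled points passed an adjusted p of 0.05, and the gefitinib panel has 30 filled points left of 0 and 2 right of it.

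The second comparison asked how tankyrase inhibition changed the same genes. With AZ1366, 9 of 38 genes rose and 15 fell, against 18.6% of all tested loci called higher, 39.8% called lower and 58.4% called in either direction. The median log2 change was -0.07 over the 38 genes and -0.10 over all tested loci. The libraries lay wholly above vehicle for 5 of the 38 genes and wholly below for 10, against 14.6% and 26.0% of loci. Comparisons with vehicle share the 4 vehicle libraries, so their values are given side by side without a count across them. Without AZ1366 replicate 1, 9 genes rose and 16 fell. The count of rises and falls depended on the scaling. With median-ratio scaling, which removes the shift of -0.10, 14 rose and 13 fell. After the correction for length and GC content 17 rose and 7 fell. The shares of loci above come from the fit without these changes, so they are no background for these counts. Changes with AZ1366 ran with transcript length over 11463 loci (Spearman's coefficient of -0.324 across genes, which are not independent replicates). The same coefficient was -0.168 with gefitinib, -0.289 with both drugs and -0.409 for the combination against gefitinib, and the part of this in the results was not tested.

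Of the 16 glycolytic enzymes 6 rose and 7 fell with AZ1366, beside 18.6% of all tested loci called higher and 39.8% called lower. The counts were 6 and 5 with median-ratio scaling, 6 and 2 after length and GC correction, and 3 and 9 with quantile normalization. No shares of loci are given for these settings. The enzymes that fell without these changes stand in the upper pathway except for ENO1: HK1, HK2, GPI, PFKL, PFKM and PFKP. PFKP was 97.5, 73.9, 76.0 and 79.0 FPKM with AZ1366, all under the vehicle libraries (-0.53 ± 0.0881, limma adjusted p = 0.000129). HK2 fell by 0.36 ± 0.0795, with replicate 1 close to vehicle, and by 0.45 without that library. The changes of HK1, PFKL, PFKM and GPI were -0.24, -0.41, -0.28 and -0.20, and after length and GC correction they were -0.03, -0.06, -0.11 and 0.02 and did not pass. ENO1 (-0.13, adjusted p = 0.0491) lost its call in most alternatives.

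The enzymes that rose with AZ1366 act from aldolase downwards: ALDOC, GAPDH, PGK1, PGAM1, LDHA and LDHB. Not all enzymes there rose: ALDOA, ENO2 and PKM2 did not pass, and ENO1 fell. PKM2 was called lower with quantile normalization (-0.24, limma adjusted p = 0.0105). LDHA was 1095, 1325, 1340 and 1331 FPKM, all above the vehicle libraries, with a log2 change of 0.33 ± 0.0715 (limma adjusted p = 0.0011) that was 0.40 without replicate 1. PGK1 (chrX:77359665-77382324), which makes the first ATP of glycolysis, was 777, 790, 799 and 777 FPKM in vehicle, 641, 667, 705 and 704 with gefitinib, 879, 940, 937 and 941 with AZ1366, and 717, 728, 758 and 759 with both. PGK1 was thus highest with AZ1366 (0.23 ± 0.0479, adjusted p = 0.000664), and the call was lost with quantile normalization (0.08). LDHB, the subunit that favours pyruvate, rose by 0.41 ± 0.0915 and ALDOC by 0.23 ± 0.0686. GAPDH was at 0.18 ± 0.0573 and PGAM1 at 0.16 ± 0.0537, and quantile normalization turned GAPDH to -0.03 and left PGAM1 at 0.08. The row matched to TPI1 was at 0.18 ± 0.0634 (adjusted p = 0.0214) and turned to -0.01 with quantile normalization.

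Both SLC2A1 and SLC16A1 fell with AZ1366, by 0.34 ± 0.0654 and 0.47 ± 0.0603, and SLC16A3 did not pass (-0.09). None of the 3 flux regulators passed (PFKFB3 -0.13, PFKFB4 -0.02, PDK1 0.01). After length and GC correction SLC16A3 and PFKFB4 were called higher, at 0.25 (limma adjusted p = 0.00125) and 0.23 (adjusted p = 0.0071). Without AZ1366 replicate 1, PFKFB3 fell (-0.24, limma adjusted p = 0.0127).

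Of the 14 non-metabolic HIF targets 3 rose and 4 fell with AZ1366, beside 18.6% of all tested loci called higher and 39.8% called lower. The counts were 7 and 4 with median-ratio scaling, 8 and 2 after length and GC correction, and 7 and 3 with quantile normalization. No shares of loci are given for these settings. NDRG1 was 27.3, 24.9, 22.9 and 27.4 FPKM with AZ1366, above every vehicle library (0.43 ± 0.0666, limma adjusted p = 7.21e-05). CA9 was 13.8, 12.3, 11.6 and 14.02 FPKM, which overlapped vehicle in 1 library (0.27 ± 0.0779, adjusted p = 0.00795). BNIP3 (chr10:133781203-133795435) was 59.6, 74.6, 76.3 and 65.0 FPKM in vehicle, 46.8, 49.5, 52.0 and 50.3 with gefitinib, and 77.7, 82.4, 85.6 and 85.2 with AZ1366 (0.27 ± 0.0667, adjusted p = 0.00276). These 3 rises, with those of LDHA, LDHB and ALDOC, held in all 26 alternatives, although part of the alternatives cannot move a log2 change between 2 groups.

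The 4 targets that fell with AZ1366 were STC2, VEGFA, ADM and STC1. STC2 was 35.8, 34.2, 32.6 and 31.5 FPKM in vehicle and 22.4, 15.1, 14.9 and 15.9 with AZ1366, a change of -0.95 ± 0.103 (limma adjusted p = 2.47e-06) that was -1.08 without replicate 1. VEGFA was 17.9, 11.1, 11.6 and 12.2 FPKM, so that replicate 1 lay among the vehicle libraries (-0.40 ± 0.113, adjusted p = 0.00638, and -0.54 without it). After length and GC correction VEGFA was at -0.07 and STC1 at -0.10 (-0.22 as measured), neither of which passed. ADM fell to 4.43, 3.92, 4.88 and 5.19 FPKM (-0.39 ± 0.0732, adjusted p = 0.00037). EGLN3, a HIF prolyl hydroxylase, did not pass (-0.17) but fell without replicate 1 (-0.26, adjusted p = 0.00165).

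HIF1A and EPAS1 fell with AZ1366, by 0.35 ± 0.0868 and 0.29 ± 0.0934. HIF1A in replicate 1 was 306 FPKM, just under the lowest vehicle library, and without it the change was -0.46. EPAS1 changed by -0.39 without that library and by -0.06, which did not pass, after length and GC correction.

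**Figure D3:**
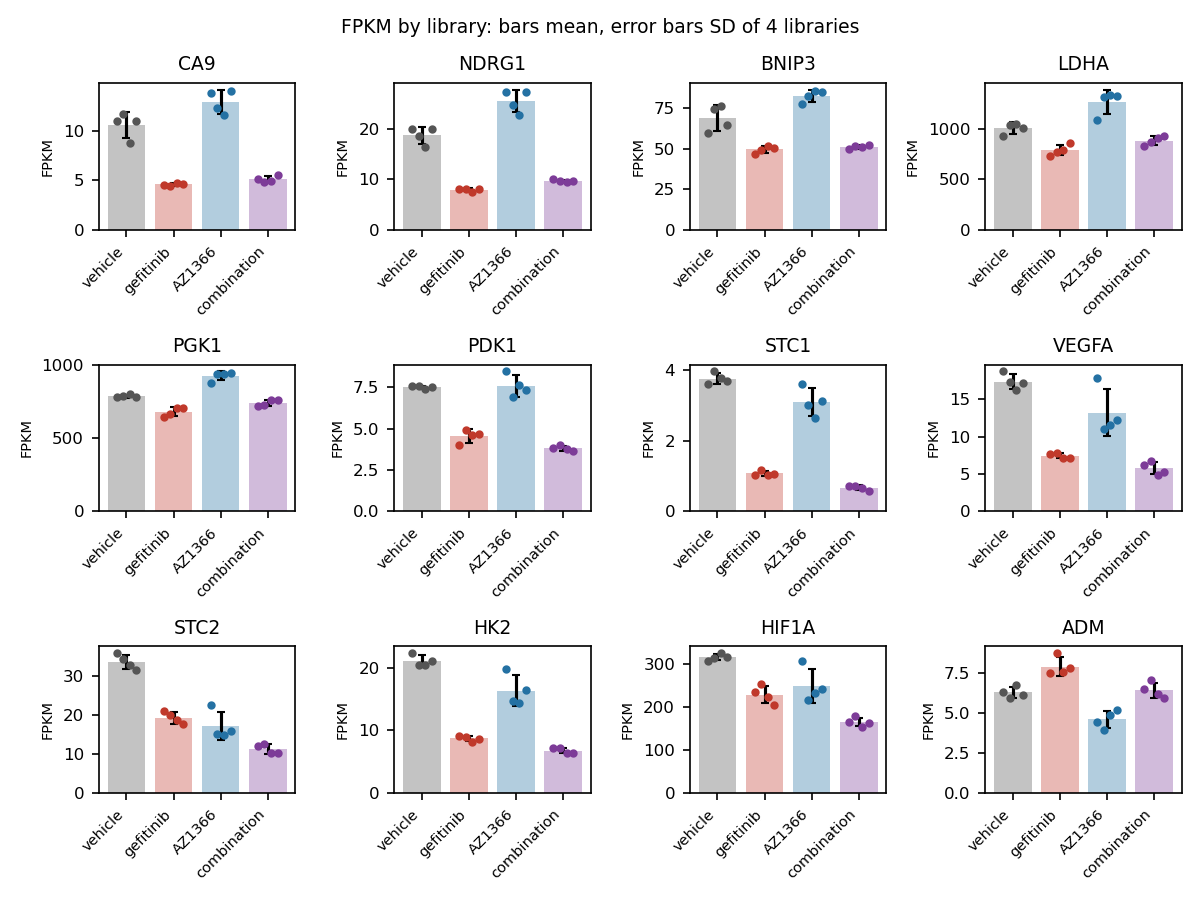
FPKM of 12 genes in each of the 16 libraries (points), with the group mean as a bar from 0 and the SD of 4 libraries as the error bar. CA9, NDRG1, BNIP3, LDHA and PGK1 have their highest mean with AZ1366 and their lowest with gefitinib, whereas STC1, VEGFA, STC2, HK2 and HIF1A have their lowest mean with both drugs.

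The direct comparison of the 2 drugs uses no vehicle library. Between gefitinib and AZ1366, 25 of 38 genes were lower and 2 higher with gefitinib, against 17.9% and 28.1% of all tested loci and 46.0% in either direction. The median log2 difference was -0.25 over the 38 genes and 0.04 over all loci. The groups did not overlap for 27 genes lower and 1 higher, against 14.7% and 20.5% of loci. Without AZ1366 replicate 1, 24 genes were lower and 6 higher, counts for which no shares of loci are given. NDRG1 differed most, at -1.57 ± 0.0666 (limma adjusted p = 6.7e-12), followed by CA9 at -1.32 ± 0.0779 (adjusted p = 3.32e-10). STC1, HK2, VEGFA, ENO2, BNIP3 and LDHA differed by -0.98, -0.83, -0.73, -0.72, -0.72 and -0.68. Lower with gefitinib were 14 of 16 enzymes, and PFKL and PFKM did not pass, at 0.19 and 0.08. The 2 genes higher with gefitinib were ADM (0.68 ± 0.0732, adjusted p = 7.78e-07) and PFKFB3 (0.35 ± 0.0971, adjusted p = 0.00659). SLC16A1, STC2 and HIF1A did not pass, at 0.03 (95% interval -0.10 to 0.15), 0.18 (-0.04 to 0.40) and -0.12 (-0.30 to 0.07), and without AZ1366 replicate 1 STC2 passed at 0.31.

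With both drugs, 30 of 38 genes fell and 1 rose against vehicle, beside 49.4% of all tested loci called lower, 29.9% called higher and 79.3% called in either direction. The median was -0.41 over the 38 genes and -0.15 over all loci. The groups did not overlap for 32 genes below vehicle and 1 above it, against 48.1% and 28.4% of loci. With median-ratio scaling, which removes the shift of -0.15, 22 fell and 4 rose, and after length and GC correction 23 fell and 5 rose. The shares of loci under these 2 settings are not given, and those above are no background for these counts. All 3 transporters, 12 of 16 enzymes, 2 of 3 flux regulators, 11 of 14 HIF targets and both HIF alpha transcripts were called lower. Median-ratio scaling left 7 enzymes lower and made 1 higher, ALDOC (0.22 against 0.05 as measured).

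On the log2(FPKM + 1) scale, which shrinks the changes of low genes, the largest falls with both drugs were those of STC1, HK2, STC2 and VEGFA. Over the alternatives, among them a pseudocount of 0.1, their changes ran as low as -2.34, -1.63, -1.58 and -1.58. STC1 was 0.722, 0.711, 0.669 and 0.565 FPKM (-1.51 ± 0.0637, limma adjusted p = 7.06e-13). HK2 fell by 1.51 ± 0.0795 (adjusted p = 1.24e-11). STC2 was 11.97, 12.4, 10.1 and 10.2 FPKM (-1.51 ± 0.103, adjusted p = 4.01e-10) and VEGFA 6.13, 6.80, 4.90 and 5.31 FPKM (-1.45 ± 0.113, adjusted p = 2.18e-09). PFKP fell by 1.20, EPAS1 by 1.12, SLC2A1 by 0.99, SLC16A1 by 0.97, HIF1A by 0.94 and PDK1 by 0.83. GAPDH (-0.03), PGK1 (-0.09), ALDOC (0.05) and LDHB (0.05) did not pass, and the scaling moved them. With quantile normalization GAPDH and PGK1 were called lower, at -0.63 (adjusted p = 1.91e-08) and -0.32 (adjusted p = 2.94e-06), and ALDOC higher, at 0.27. After length and GC correction PGK1 was called higher, at 0.17 (adjusted p = 0.0456). CA12 was the gene that rose (0.25 ± 0.0741, adjusted p = 0.00463). The falls of SLC16A3 (-0.22), EGLN1 (-0.30), P4HA2 (-0.15) and KDM3A (-0.20) each turned positive under length and GC correction (0.16, 0.03, 0.03 and 0.13).

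Against gefitinib alone the combination was lower for 14 of 38 genes and higher for 3, beside 37.2%, 15.3% and, in either direction, 52.5% of all tested loci. Groups did not overlap for 14 genes lower and 5 higher with both drugs, against 34.4% and 14.2% of loci. The split moved with scaling, to 11 lower and 7 higher with median-ratio scaling, 12 and 5 when quantiles were equalised, and 10 and 10 when length and GC content were corrected for. Shares of loci under these settings are not given, and those above are no background for these counts. The falls that held in every alternative testing the gene were those of HK2 (-0.33), PFKP (-0.42), SLC2A1 (-0.40), SLC16A1 (-0.52), STC1 (-0.31), STC2 (-0.74), EGLN3 (-0.42), HIF1A (-0.47) and EPAS1 (-0.37). STC1 was not tested with the minimum of 5 FPKM. EGLN3 was 5.89 to 6.84 FPKM with both drugs and 8.58 to 9.13 with gefitinib. NDRG1 was 9.98, 9.61, 9.41 and 9.71 FPKM with both drugs, above the 4 gefitinib libraries (0.26 ± 0.0666, limma adjusted p = 0.00414). GAPDH (0.17) and PGK1 (0.12) were also higher, and both turned negative with quantile normalization (-0.17 and -0.01).

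Against AZ1366 alone the combination was lower for 31 of 38 genes and higher for 1, ADM, beside 35.7%, 26.9% and, in either direction, 62.6% of all tested loci. The groups did not overlap for 30 genes lower and 1 higher, against 30.8% and 22.7% of loci. Without AZ1366 replicate 1, 29 genes were lower and 3 higher, counts for which no shares of loci are given. NDRG1 differed by -1.31, STC1 by -1.29, CA9 by -1.19, HK2 by -1.15 and VEGFA by -1.05. ADM was 6.499, 7.09, 6.19 and 5.95 FPKM with both drugs, higher than with AZ1366 alone (0.41 ± 0.0732, limma adjusted p = 0.000107). Its level with both drugs did not pass against vehicle (0.02), nor in 24 of 26 alternatives. Over the alternatives that change ran from -0.017 to 0.234, with a lowest limma adjusted p of 0.00536.

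The interaction term asked whether the combination departed from the sum of both single changes on the log2 scale. None of the 38 genes passed (limma, lowest adjusted p = 0.221), against 1.82% of all tested loci called, 0.326% higher and 1.49% lower. At an unadjusted p of 0.05, 7 of 38 passed, 1 with a positive term (PFKM, 0.25) and 6 with a negative one (PGAM1, LDHB, PDK1, BNIP3, P4HA1 and EGLN3), against 14.4% of all tested loci, 5.64% positive and 8.71% negative. Over 11463 loci the term ran with GC content (Spearman's coefficient of 0.462 across genes), and the part of this in the values was not tested. Quantile normalization gave 2 calls, PFKM (0.26) and EGLN3 (-0.26), and leaving out AZ1366 replicate 1 gave 1, PFKM (0.31). For HK2 the term was 0.03 ± 0.112 and for NDRG1 -0.17 ± 0.0943.

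Glycolytic enzymes and non-metabolic HIF targets were then set side by side, without a test since genes are not replicates. The added 1 FPKM shrinks low genes most, and the lists differ in level. In vehicle the HIF targets ran from 1.502 to 68.9 FPKM and the enzymes from 8.71 to 3140 FPKM. The mean log2 value of the 16 enzymes against vehicle was -0.42, -0.38, -0.40 and -0.34 in the gefitinib libraries, -0.00, -0.10, -0.06 and -0.03 with AZ1366, and -0.44, -0.41, -0.47 and -0.41 with both. That of the 14 HIF targets was -0.44, -0.39, -0.45 and -0.50, then 0.10, -0.15, -0.17 and -0.05, and -0.55, -0.54, -0.66 and -0.63. Both lists were lower in all gefitinib and combination libraries than in any vehicle or AZ1366 library. The median change of the HIF targets minus that of the enzymes was -0.05 with gefitinib, 0.09 with AZ1366 and -0.18 with both, where the SD of this difference between libraries of a group was 0.0666. With quantile normalization these became 0.12, 0.26 and 0.22, so that their order with gefitinib and with both drugs turned.

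With gefitinib the enzymes ran from -1.19 (HK2) to -0.06 (LDHB) and the HIF targets from -1.20 (STC1) to 0.29 (ADM). Ratios between paralogs differed between treatments, which is given as a description without a test. The ratio of P4HA2 to P4HA1 in FPKM was 1.303 ± 0.0419 (SD, n = 4) in vehicle, 1.36 ± 0.0871 with AZ1366, 1.71 ± 0.0548 with gefitinib and 1.94 ± 0.0198 with both drugs. The ratio of PFKP to PFKL was 2.82 ± 0.0957, 2.61 ± 0.0656, 1.91 ± 0.0528 and 1.64 ± 0.0291 in the same order. The ratio of STC2 to STC1 was 8.93 ± 0.682 in vehicle, 18.05 ± 1.89 with gefitinib, 5.48 ± 0.544 with AZ1366 alone and 16.8 ± 1.28 with both, and the libraries of vehicle, gefitinib and AZ1366 did not overlap.

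**Figure D4:**
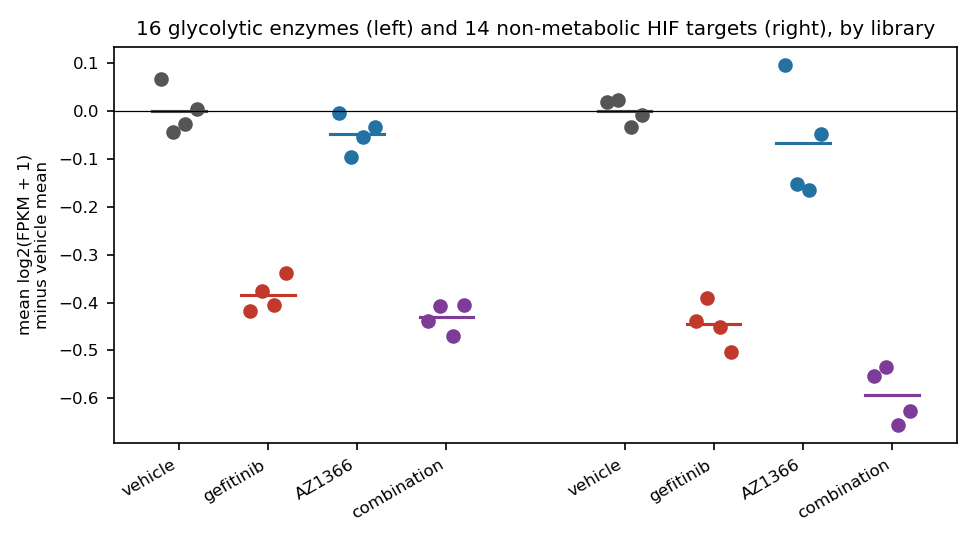
Mean log2(FPKM + 1) minus the vehicle mean in each library (points), with the group mean as a line, for 16 glycolytic enzymes on the left and 14 non-metabolic HIF targets on the right. All gefitinib and combination points lie between -0.66 and -0.34, and AZ1366 replicate 1 is the highest of the AZ1366 points in both lists.

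Other genes of these pathways were read from 5 further lists of 100 genes, of which 97 had a row and 79 were tested. With gefitinib, 5 of 19 other glycolysis and hexose genes rose and 4 fell, and 5 of 12 genes of pyruvate entry into mitochondria rose and 5 fell. Of 13 HIF pathway components 6 rose and 5 fell, and of 28 other HIF targets 10 rose and 10 fell. These counts stand beside 27.7% of all tested loci called higher and 36.9% called lower. Among other HIF targets with gefitinib, ANGPTL4, an inhibitor of lipoprotein lipase, fell by 1.51 ± 0.0657 (limma adjusted p = 3.94e-12). ANGPTL4 averaged 3.14 FPKM in vehicle and 2.37 with AZ1366, but 0.458 with gefitinib and 0.622 with both. It thus reached the minimum of 1 FPKM only through the groups where it was high, and the added 1 FPKM weighs on its changes. LOX, a collagen cross-linking oxidase, rose by 1.15 ± 0.0871, IGFBP3, which binds insulin-like growth factors, by 1.06 ± 0.121, and CCNG2, a cyclin linked to growth arrest, by 0.79 ± 0.0653.

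Of the pentose phosphate genes, RPIA, an isomerase, fell by 0.50 with gefitinib (limma adjusted p = 4.38e-06), and RPE, an epimerase, by 0.16, a call that was lost with median-ratio scaling (-0.10). PGD and TKT of the same route rose, by 0.24 and 0.30. SLC2A12, a glucose transporter of another class, rose by 0.55 with gefitinib, 0.96 with AZ1366 and 1.49 with both. PDK2, a paralog of PDK1, rose by 0.72, 0.35 and 0.95 in the same order, while PDK1 was at -0.62, 0.01 and -0.83. PDHX, a structural subunit of pyruvate dehydrogenase, fell by 0.61 ± 0.102 with AZ1366 and by 0.98 with both. In AZ1366 replicate 1 PDHX was at 66.9 FPKM, against 45.5 to 48.6 FPKM in the other AZ1366 libraries. Among HIF pathway components ARNT2, a dimer partner of the alpha subunits, rose by 0.84 with gefitinib and 0.80 with both, and the coactivator EP300 fell by 0.46 and 0.80. VHL, which marks HIF alpha for degradation, fell by 0.67 ± 0.122 with both drugs (limma adjusted p = 7.26e-05). With AZ1366, 3 of the other hexose genes rose and 7 fell, and with both drugs 7 rose and 10 fell, beside 18.6% and 39.8% of all loci with AZ1366 and 29.9% and 49.4% with both. The interaction passed for 1 of the 79, ANGPTL4 (0.45 ± 0.0929, adjusted p = 0.0184), and was lost without AZ1366 replicate 4 (adjusted p = 0.05). All gefitinib and combination libraries of ANGPTL4 were under 1 FPKM, so this term rests on values near the floor.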

How the data were processed

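Poly-A RNA of HCC4006 cells was sequenced after TruSeq RNA v2 preparation, per the labels' protocols. The authors deposited FPKM values per locus and library. The submitters' processing notes name TopHat 1.4.1, Cufflinks 1.3.0, Cuffdiff and the build hg19, without roles, and strand use is not given in the sources used here. No counts were used, so depth is unknown, and 0 pairs of libraries were identical. The highest row per symbol was taken as log2(FPKM + 1), a pseudocount of 1. Loci with a mean of at least 1 FPKM were fitted with limma 3.58.1 in R 4.3.3, with a mean-variance trend and 1 spread over the 4 groups (12 residual degrees of freedom). The 7 comparisons were two-sided, with Benjamini-Hochberg adjustment over all 11647 loci and a threshold of 0.05. The scripts were tested on simulated data. All 40 members were described by role, and from each further list up to 3 called genes per direction with the largest change against vehicle could be named. The members, the further lists and the tests were chosen with earlier results of these data known. Each of 26 alternatives changed 1 choice: pseudocount 0.1, no minimum, a minimum of 5 FPKM, quantile normalization, median-ratio scaling, no trend, only the libraries compared, a replicate block, a length and GC correction (GENCODE models matched by name), summed rows, and leaving out each of 16 libraries.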

Additional observations from a re-analysis of the deposited data

Results flagged for a closer look

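In each of 38 genes and 4 treatments, the 4 libraries were searched for 1 that lay far from the others (Dixon's test at the 95% level). This picked 7 of 152 sets, and chance picks about 1 in 20. AZ1366 replicate 1 gave 3 of them: PGK1 at 879 FPKM against 937 to 941 in the other AZ1366 libraries, LDHA at 1095 FPKM against 1325 to 1340, and STC2 at 22.4 FPKM against 14.9 to 15.9. In all 3 genes this library lay on the side of vehicle, and without it the changes against vehicle were 0.26 for PGK1, 0.40 for LDHA and -1.08 for STC2. Gefitinib replicate 3 was highest for LDHB, at 472 FPKM against 442 to 444, and lowest for NDRG1, at 7.43 FPKM against 8.03 to 8.13. Vehicle replicate 1 was lowest for EGLN1, at 19.6 FPKM against 21.7 to 22.1, and highest for P4HA2, at 59.0 FPKM against 55.4 to 55.9. No term for a departure from additivity passed in the 38 genes.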

How the results depend on the processing

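Of 6857 single values recomputed for the 38 genes, 6494 kept sign and side of the threshold. A further 132 lost a call and 100 gained one with the sign kept. These totals include alternatives that cannot move a log2 change between 2 groups. Of 266 values each, 215 kept their call or lack of one with length and GC correction. With quantile normalization 222 did, with median-ratio scaling 225, and without the trend all 266. The sign changed in 131, of which 20 were called in at least 1 of both fits and 111 in neither; the cause was not tested. Calls that held in every alternative testing the gene were 22 of 30 lower and 2 of 2 higher with gefitinib. They were 7 of 15 lower and 6 of 9 higher with AZ1366, and 20 of 30 lower and 1 of 1 higher with both. CA12, STC1 and PFKFB4 were tested in 25 alternatives, since they fell under the minimum of 5 FPKM. Length and GC correction turned EGLN1 (0.17), GPI (0.017), KDM3A (0.12), PFKFB4 (0.23), SLC16A3 (0.25), PYGB (0.11) and TKT (0.087) with AZ1366. It turned EGLN1 (0.028), KDM3A (0.13), P4HA2 (0.032), PGK1 (0.17) and SLC16A3 (0.16) with both drugs against vehicle, and KDM3A (0.13) and PDK1 (0.051) against gefitinib. Quantile normalization turned EGLN1 (0.13), GAPDH (-0.032), PKM2 (-0.24) and TPI1 (-0.015) with AZ1366, KDM3A (0.032) with both, and GAPDH (-0.17), PFKM (0.13) and PGK1 (-0.012) in the combination against gefitinib. Median-ratio scaling turned P4HA2 (0.031) and RPE (0.0086) with both drugs. The median of HIF targets minus that of enzymes moved with quantile normalization to 0.12 (gefitinib), 0.26 (AZ1366) and 0.22 (both), and with length and GC correction to -0.11 (both). Interaction calls numbered 2 with quantile normalization and 0 to 1 when 1 library was left out (1 without AZ1366 replicate 1). With the replicate block, 30 genes fell and 3 rose with gefitinib, 15 and 9 with AZ1366, and 30 and 1 with both. The combination was lower for 16 and higher for 4 against gefitinib, and for 32 and 2 against AZ1366. Gefitinib was lower for 26 and higher for 2 against AZ1366, and the interaction gave 0 calls. Shares of all tested loci under the block are not given, and those of the fit without it are no background for these counts. The same holds for counts under the other alternatives. Same-numbered libraries did not all deviate together (r from -0.447 to 0.539 over 24 pairs, median 0.215, against a median of -0.0914 over 72 pairs of different numbers, and 4 of 16 libraries correlated best with their own number). Deviations within a group sum to 0, so these medians are not independent. The libraries of replicate 1 deviated together most (r from 0.207 to 0.539), AZ1366 replicate 1 among them. All pairs were also positive in replicate 3 (0.132 to 0.292) and replicate 4 (0.0086 to 0.274). Those of replicate 2 ran from -0.447 to 0.290. The numbers were not taken as a pairing, except in the replicate block, and an effect shared by libraries of the same number was not tested. Unknown depth leaves the counting error of low genes such as STC1, PFKFB4 and CA12 unmeasured.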
